A study of Mus musculus with 2 samples.

Results

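Cell cycle and DNA replication genes were examined in mouse embryonic stem cells (mESCs) grown with LIF or with LIF plus CHIR. The set holds 49 genes, found by gene symbol among the 30774 gene identifiers of an Illumina mouse beadchip, and each symbol matched 1 identifier. They were grouped by role into G1 cyclins and kinases, G1/S regulators, CDK inhibitors, pocket proteins and E2F factors, replication genes, regulators of mitotic entry, and mitotic genes. The LIF sample was B6 mESCs in medium with serum and LIF, a cytokine that acts through Stat3. The LIF plus CHIR sample was the same kind of cells, in the same medium with LIF, given the GSK3 inhibitor CHIR99021 (CHIR), which activates Wnt/β-catenin signaling. The labels give 12 h for the treatment, the inner cell mass of E3.5 embryos as the source, and replicate 1 for each condition. They do not say whether the line is a clone, and no dose of CHIR is stated for the array. With 1 array per condition there is no measure of how much separate cultures vary, no difference could be tested, and culture and treatment cannot be told apart.

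Cells pass from G1 into S phase when cyclin D bound to Cdk4 or Cdk6, and then cyclin E bound to Cdk2, phosphorylate the pocket proteins (Rb1, Rbl1, Rbl2) and release E2F factors, which switch on genes for DNA replication. A later program, driven largely through promoter elements called CCAAT and CHR (cell cycle genes homology region), supplies the mitotic cyclins, kinases and checkpoint proteins. mESCs are known for a short G1 phase and rapid division. GSK3, the target of CHIR, is known to mark cyclin D1, cyclin E1 and Cdc25a proteins for degradation, a step that acts on protein and that an RNA array does not measure.

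The signal is bead brightness in arbitrary units after background subtraction, and the detection p-value compares it with negative control beads of the same array. A gene was called detected at a detection p-value under 0.01. Of the 49 genes, 32 were detected on both arrays, 2 (Cdk6 and Rbl1) on the LIF plus CHIR array only, and 15 on neither. Of 8 pluripotency markers on the array, 6 were detected, while Sox2 and Tdgf1 missed the limit on both arrays. With CHIR, 4 of the 6 were higher and 2 lower, with a median log2 fold change of 0.22. Klf4 had 0.58, Nanog 0.55, Esrrb 0.36 and Zfp42 0.08, and Utf1 had -0.49 and Pou5f1, which encodes Oct4, -0.13. The part of these shifts in the cell cycle values was not tested. Of markers of other cells, 0 of 7 for fibroblasts, 0 of 5 for primitive endoderm and 1 of 3 for neural cells were detected, the last being Nes at 44.8 in LIF plus CHIR. The fibroblast marker Thy1 missed the limit at signals of 222.3 in LIF and 225.3 in LIF plus CHIR. Axin2, a feedback target of Wnt/β-catenin signaling, had 314.1 in LIF and 1178 in LIF plus CHIR, a log2 fold change of 1.91.

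Fold changes or bounds could be given for 33 of the 34 detected cell cycle genes, and none of these values reached 1.5-fold. The remaining gene, Rbl1, had no fold. Among all 9615 identifiers detected on at least 1 array, 5.52% reached 1.5-fold, with 2.64% higher and 2.88% lower with CHIR. The share was 5.01% (2.37% higher, 2.65% lower) for identifiers detected on both arrays, 2.21% where the brighter signal was 1000 or more, and 7.23% (2.9% higher, 4.33% lower) where it was under 100. Over the 32 genes detected on both arrays the median log2 fold change of LIF plus CHIR over LIF was 0.02, with a range from -0.56 for Rb1 to 0.26 for Cdc25b, and 17 genes lay above 0 and 15 below. Quantile normalization and normexp correction turned this split to 15 above and 17 below and the median to -0.00. The median over the 8580 identifiers detected on both arrays was -0.0034. Signals differed by no more than 10% for 21 of the 32 genes, against 50.8% of all identifiers detected on both arrays. These shares are not matched for brightness, as 24 of the 32 genes had a brighter signal of 1000 or more. Quartiles of the log2 fold change were -0.10 and 0.10 for all identifiers that bright. They were -0.14 and 0.13 for all identifiers detected on both arrays. RNA was taken from whole cultures, so a change in the share of cells in a phase and a change of RNA per cell cannot be told apart.

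**Figure D1:**
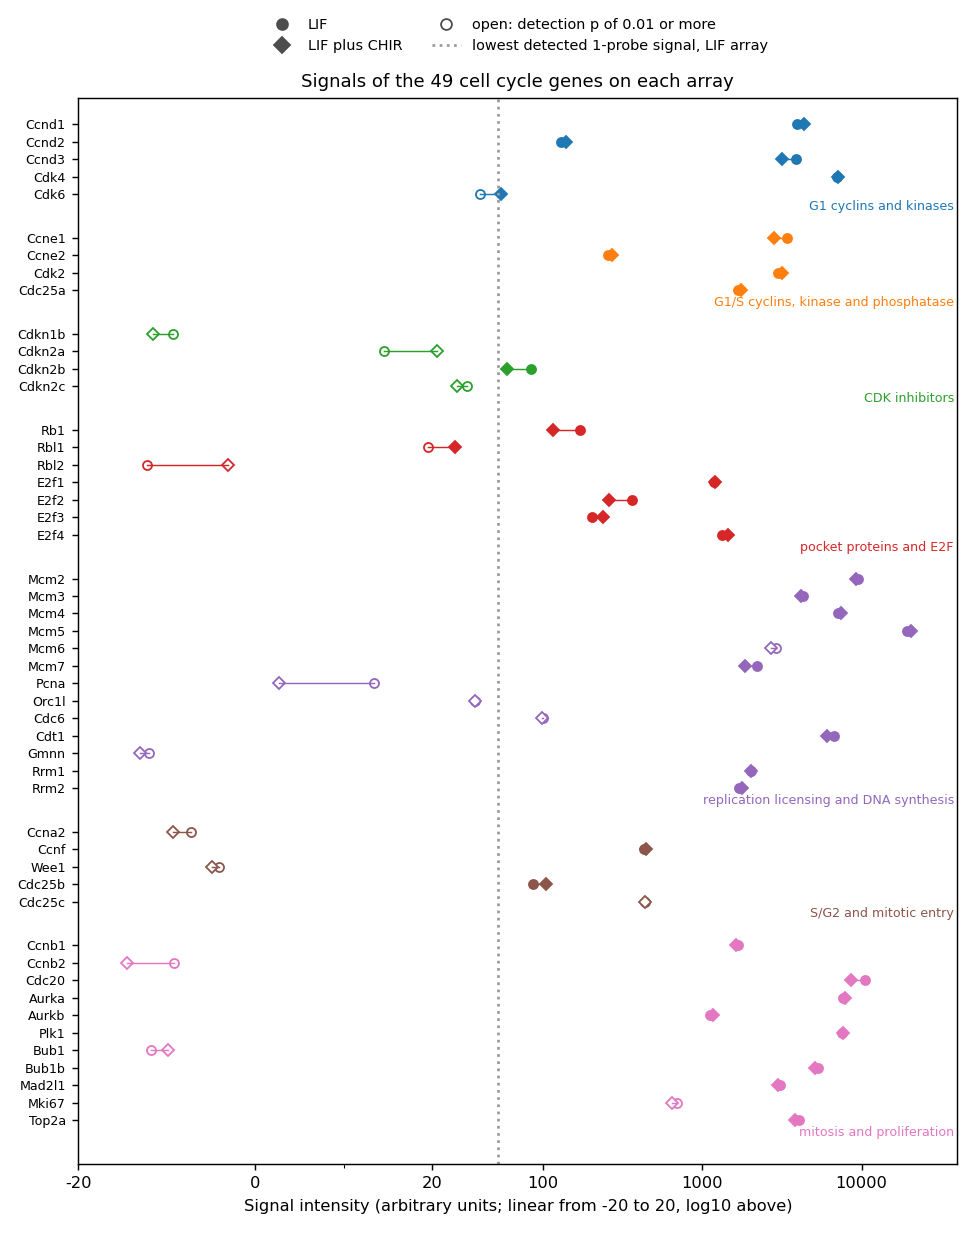
Signal intensity of each of the 49 genes (horizontal axis, arbitrary units, linear from -20 to 20 and logarithmic above) in LIF (circles) and LIF plus CHIR (diamonds), coloured by role, with open symbols where the detection p-value was 0.01 or more. For the 32 genes with both symbols filled, the pair lies close together, and the widest pairs are Rb1, Cdkn2b and E2f2.

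The limit of 1.2-fold used next was chosen after the values were seen. At this limit 6 of the 32 genes were lower in LIF plus CHIR (Rb1, Cdkn2b, E2f2, Cdc20, Ccnd3 and Ccne1) and 0 were higher, against 12.2% lower and 11.4% higher among all identifiers detected on both arrays. The one-sided split depended on the detection limit. At a detection p-value under 0.05 the same 6 genes were lower and 3 dim genes were higher, Cdkn2a (1.47-fold), Rbl1 (1.42-fold) and Cdk6 (1.35-fold), and normexp correction added Cdc25b as a higher gene. Of the 24 genes whose brighter signal was 1000 or more, 12 lay above 0 and 12 below, 18 differed by no more than 10%, and 3 (Cdc20, Ccnd3 and Ccne1) were at least 1.2-fold lower. For the 3211 identifiers at that brightness the corresponding share was 6.17% lower and 5.82% higher. The lower and upper quartiles of their log2 fold changes were -0.10 and 0.10, and their share within 10% was not counted. The 5th and 95th percentiles of these log2 fold changes were -0.29 and 0.28. All but 1 of the 24 genes lay between those percentiles, and Cdc20 lay at the lower edge.

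The D-type cyclins, which start the passage through G1, did not move together. Ccnd1, which encodes cyclin D1 and is widely used as a Wnt/β-catenin target gene, had a signal of 3923 in LIF and 4347 in LIF plus CHIR, a 1.11-fold higher value with CHIR (log2 fold change 0.15). Ccnd2 had 128.7 in LIF and 139.1 in LIF plus CHIR (log2 fold change 0.11). Ccnd3 had 3879 in LIF and 3184 in LIF plus CHIR, which is 1.22-fold lower with CHIR (log2 fold change -0.28). Cyclins D1 and D2 were thus slightly brighter with CHIR and cyclin D3 dimmer, all by less than 1.5-fold. Their partner Cdk4 had 6973 and 7084, a log2 fold change of 0.02. The other partner, Cdk6, had 40.3 in LIF, where its detection p-value was 0.026, and 54.4 in LIF plus CHIR, with a detection p-value of 0.0064. Against 51.9, the lowest detected signal of an identifier with 1 probe on the LIF array, Cdk6 was at least 1.05-fold higher with CHIR.

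The G1/S regulators showed 1 lower gene among 4. Ccne1, which encodes cyclin E1, had a signal of 3418 in LIF and 2831 in LIF plus CHIR, which is 1.21-fold lower (log2 fold change -0.27). Ccne2, its paralog, had 256.6 and 269.9 (log2 fold change 0.07). Cdk2, the kinase that both cyclins activate, had 2976 and 3142 (log2 fold change 0.08), and Cdc25a, the phosphatase that removes inhibitory phosphates from Cdk2, had 1683 and 1737 (log2 fold change 0.04). Beside Ccne1, the other 3 genes were therefore brighter with CHIR by less than 10%.

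Among the CDK inhibitors on the list, only Cdkn2b could be compared. Cdkn2b, which encodes the Cdk4 and Cdk6 inhibitor p15, was dim, with 83.8 in LIF and 58.9 in LIF plus CHIR. This is a 1.42-fold lower signal (log2 fold change -0.51), close to the lowest detected signals of identifiers with 1 probe, 51.9 in LIF and 47.1 in LIF plus CHIR. Cdkn2a, which encodes p16 and p19Arf, had 14.6 and 21.4 with detection p-values of 0.028 and 0.035. Cdkn2c, which encodes p18, had 33.1 and 28.9, and Cdkn1b, which encodes p27, had -9.33 and -11.6. Their detection p-values were 0.47 and 0.48 for Cdkn2c and 0.88 and 0.93 for Cdkn1b, so no fold is given for these 3 genes.

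Rb1, the retinoblastoma pocket protein, had the largest difference of the set. The LIF array gave it 170.4 and the LIF plus CHIR array 115.3, a signal 1.48-fold lower with CHIR (log2 fold change -0.56). Normexp background correction moved it past the limit, to a log2 fold change of -0.59. Rbl1, which encodes p107, had 19.6 in LIF (not detected) and 27.8 in LIF plus CHIR, under the lowest detected signal of an identifier with 1 probe, so no bound was given. Rbl2, which encodes p130, had -12.2 and -3.07 and was detected on neither array. The pocket proteins thus gave 1 measured difference, in a dim gene.

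The E2F factors went in different directions. E2f2, 1 of the activating E2F factors, had 359.7 in LIF and 259.4 in LIF plus CHIR, which is 1.39-fold lower (log2 fold change -0.47). E2f3, another activator, had 202.8 and 236.7 (log2 fold change 0.22). E2f1 had 1185 and 1199, a log2 fold change of 0.02, and E2f4, which mainly acts with pocket proteins in repression, had 1329 and 1439, a log2 fold change of 0.12. For identifiers detected on both arrays with a brighter signal from 100 to under 1000, the range that holds Rb1, E2f2 and E2f3, the 5th and 95th percentiles were -0.51 and 0.48, so that Rb1 lay below this range and both E2F genes inside it.

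**Figure D2:**
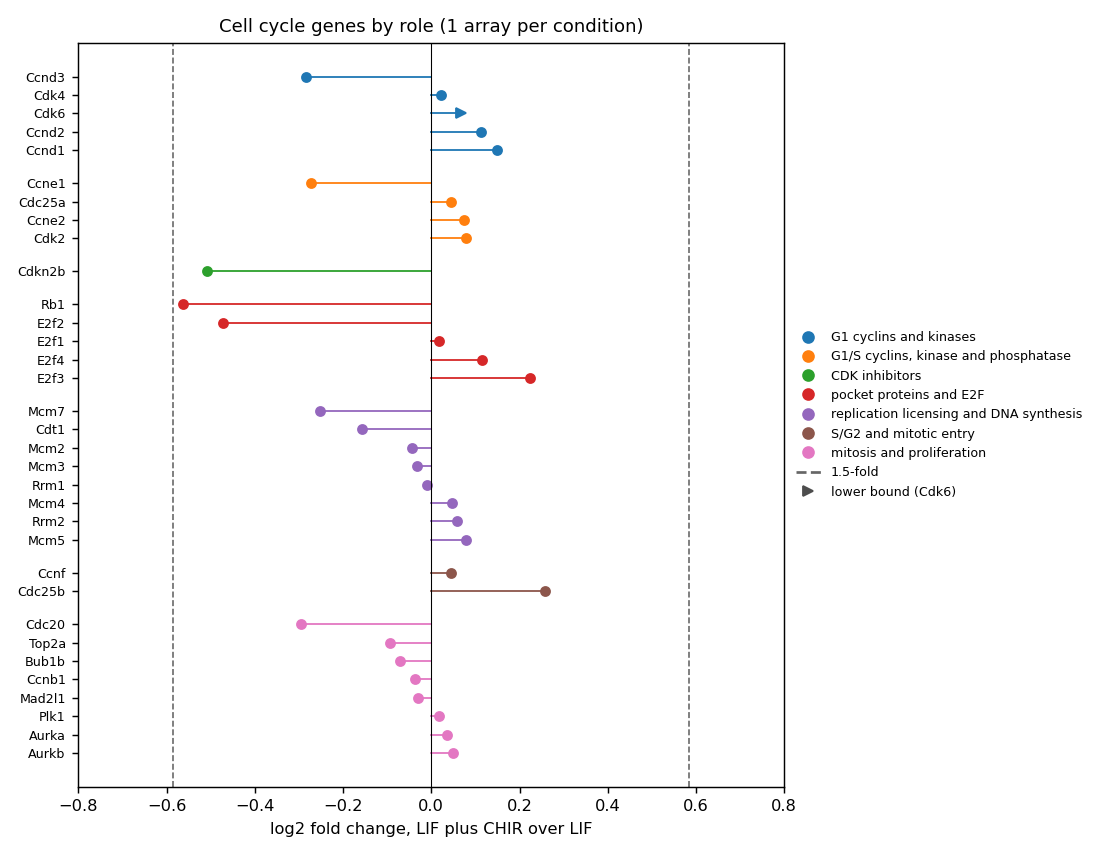
Log2 fold change of LIF plus CHIR over LIF for each gene with a value, sorted within its role, with dashed lines at 1.5-fold and an arrowhead for the lower bound of Cdk6. Every point lies inside the dashed lines, from -0.56 for Rb1 to 0.26 for Cdc25b.

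Of 13 replication genes, 8 were detected on both arrays. Of these 8 genes, 6 differed by no more than 10%, against 50.8% of all identifiers detected on both arrays at any brightness. The median log2 fold change of the 8 genes was -0.02. The Mcm2 to Mcm7 proteins form the ring-shaped helicase that is loaded on origins in G1. Mcm2 had 9495 in LIF and 9210 in LIF plus CHIR (log2 fold change -0.04). Mcm3 had 4255 and 4161 (-0.03). Mcm4 had 7142 and 7380 (0.05). These 3 subunits differed by no more than 10% between the conditions. Mcm5 had 19409 and 20513, a log2 fold change of 0.08. Mcm7 differed most of the measured subunits, with 2213 in LIF and 1859 in LIF plus CHIR, which is 1.19-fold lower (log2 fold change -0.25). Its value lay between the 5th and 95th percentiles of identifiers with a brighter signal of 1000 or more, -0.29 and 0.28. Mcm6 had 2902 and 2705 but missed the detection limit, with p-values of 0.020 and 0.017, so that 5 of the 6 subunits were compared.

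The factors that load the helicase were measured less completely. Cdt1, which brings the helicase to origins, had 6741 in LIF and 6046 in LIF plus CHIR, which is 1.11-fold lower (log2 fold change -0.16). Cdc6, its partner in loading, had 99.1 and 98.3, and Orc1l, the array's older symbol for the origin recognition subunit Orc1, had 37.1 on each array. Gmnn, which encodes the Cdt1 inhibitor geminin, had -12.0 and -13.0. Cdc6, Orc1l and Gmnn were detected on neither array. Rrm1 and Rrm2, the subunits of ribonucleotide reductase that makes deoxyribonucleotides, had 2033 and 2019 (log2 fold change -0.01) and 1689 and 1760 (0.06). Pcna, the sliding clamp of DNA polymerases, had 13.4 and 2.72, with detection p-values of 0.16 and 0.32. Pcna is required for DNA replication in dividing cells, and a gene listed here as not detected may still be expressed.

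Promoters of these genes were searched for E2F sites because E2F factors switch on genes for DNA replication. Promoter windows from 250 bases before to 50 after the annotated start were taken from RefSeq (build GRCm38.p6), and 38 of the 49 genes had at least 1, with 44 windows in all. The E2F words searched on both strands were TTTCCCGC, TTTGGCGC, TTTCGCGC and TTTGCCGC. At least 1 of them stood in 29.5% of the 44 windows and in 2.26% of all 32851 windows. By role, 7 of 11 replication genes (Cdc6, Cdt1, Mcm3, Mcm5, Mcm6, Mcm7 and Orc1l) and 2 of 3 G1/S genes (Cdk2 and Cdc25a) held an E2F word, against 0 of 10 mitotic genes. An E2F word also stood in 3 of 5 pocket protein and E2F genes (E2f2, E2f3 and Rbl1) and 1 of 4 CDK inhibitors (Cdkn2a). It stood in 0 of 3 G1 cyclins and kinases and 0 of 2 genes of mitotic entry. The windows of Mcm3 (chr1:20820263-20820562, minus strand), Mcm5 (chr8:75109259-75109558, plus strand) and Cdt1 (chr8:122567765-122568064, plus strand) follow, 5′ to 3′ on the gene's strand, with E2F words in capitals; in Mcm5 a pair of words on opposite strands overlaps.
Mcm3: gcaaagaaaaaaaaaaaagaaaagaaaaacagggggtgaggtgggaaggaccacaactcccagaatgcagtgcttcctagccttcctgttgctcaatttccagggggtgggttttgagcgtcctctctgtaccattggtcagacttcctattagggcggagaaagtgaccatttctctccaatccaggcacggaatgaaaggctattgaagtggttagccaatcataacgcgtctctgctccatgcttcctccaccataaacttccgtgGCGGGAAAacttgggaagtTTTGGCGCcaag
Mcm5: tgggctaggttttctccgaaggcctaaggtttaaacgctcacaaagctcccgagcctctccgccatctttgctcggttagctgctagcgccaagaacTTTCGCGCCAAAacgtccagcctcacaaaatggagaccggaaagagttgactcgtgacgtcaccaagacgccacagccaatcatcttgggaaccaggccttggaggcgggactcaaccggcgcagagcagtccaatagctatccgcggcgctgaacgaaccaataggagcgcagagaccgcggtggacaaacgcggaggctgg
Cdt1: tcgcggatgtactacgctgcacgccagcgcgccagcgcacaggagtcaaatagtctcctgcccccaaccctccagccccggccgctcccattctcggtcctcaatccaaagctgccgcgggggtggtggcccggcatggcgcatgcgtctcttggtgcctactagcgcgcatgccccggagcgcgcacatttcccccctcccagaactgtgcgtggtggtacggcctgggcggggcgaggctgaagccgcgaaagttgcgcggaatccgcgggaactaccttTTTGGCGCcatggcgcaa

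Mcm3, Mcm5 and Cdt1 did not reach 1.5-fold, and neither did any other gene of the set with a value, with or without an E2F word. Among all identifiers detected on both arrays, 5.01% did. The log2 fold changes were -0.03 for Mcm3, 0.08 for Mcm5 and -0.16 for Cdt1. Over the 8 genes with an E2F word and a fold change, the median was 0.01, with a range from -0.47 for E2f2 to 0.22 for E2f3. Over the 18 genes with a window but no E2F word, the median was -0.02, with a range from -0.51 for Cdkn2b to 0.26 for Cdc25b. A match is a stretch of letters and does not show that a factor binds there.

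Of the 5 regulators of mitotic entry, 3 missed the detection limit on both arrays. Ccnf, which encodes cyclin F, the substrate-binding subunit of a ubiquitin ligase, had 429.1 in LIF and 442.7 in LIF plus CHIR (log2 fold change 0.04). Cdc25b, a phosphatase that activates Cdk1 at the start of mitosis, had 86.5 and 103.5, which is the highest log2 fold change of the set at 0.26, from a signal close to the detection limit (detection p-value 0.0099 in LIF). Cdc25c, a phosphatase of the same family, had 435.8 and 434.1 with detection p-values of 0.041 and 0.053. Wee1, the kinase that opposes them, and Ccna2, which encodes cyclin A2, had signals below 0 on both arrays.

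Of the 8 mitotic genes detected on both arrays, 7 differed by no more than 10%, and the exception was Cdc20. The share within 10% was 50.8% for all identifiers detected on both arrays, at any brightness. These 8 genes all had a brighter signal of 1000 or more. For identifiers that bright the quartiles of the log2 fold change were -0.10 and 0.10, both within 10%, and the share was not counted. Cdc20, the activator of the anaphase-promoting complex, had 10550 in LIF and 8601 in LIF plus CHIR, which is 1.23-fold lower (log2 fold change -0.29). Ccnb1, which encodes the mitotic cyclin B1, had 1672 and 1629 (-0.04). The kinase genes were slightly brighter with CHIR: Aurka had 7682 and 7873 (0.04), Aurkb had 1121 and 1160 (0.05), and Plk1 had 7515 and 7602 (0.02). After quantile normalization the values of Aurka and Plk1 were -0.0029 and -0.007, so their direction is not settled. The spindle checkpoint genes Bub1b, with 5356 and 5101 (-0.07), and Mad2l1, with 3049 and 2988 (-0.03), were slightly dimmer. Top2a, the topoisomerase that untangles sister chromatids, had 4063 and 3811 (-0.09). Over the 8 mitotic genes detected on both arrays the median log2 fold change was -0.03, with 3 above 0 and 5 below. Ccnb2 and Bub1 had signals below 0 on both arrays. Mki67, which encodes the proliferation marker Ki-67, had 691.7 and 639.5, but its combined detection p-values were 0.70 and 0.78.

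The promoters of mitotic genes often held CHR words. The CHR words searched on both strands were TTTGAA and TTCGAA, and the CCAAT word was CCAAT on either strand. Both a CHR word and a CCAAT word stood in windows of 8 of the 10 mitotic genes with a window (Aurka, Bub1, Bub1b, Ccnb2, Cdc20, Mki67, Plk1 and Top2a), and in 7.52% of all 32851 windows. CCAAT words, counted with or without CHR, stood in 9 of 11 replication genes and 9 of 10 mitotic genes, against 37.4% of all windows. CHR words stood in 2 of 11 replication genes, against 19.2% of all windows. Both words together also stood in 2 of 2 genes of mitotic entry, 2 of 11 replication genes and 2 of 5 pocket protein and E2F genes. The windows of Cdc20 (chr4:118437294-118437593, minus strand), the mitotic gene that differed most, of Plk1 (chr7:122159185-122159484, plus strand), which differed by under 10%, and of Top2a (chr11:99024140-99024439, minus strand), which held the most CHR words, follow with CHR words in capitals.
Cdc20: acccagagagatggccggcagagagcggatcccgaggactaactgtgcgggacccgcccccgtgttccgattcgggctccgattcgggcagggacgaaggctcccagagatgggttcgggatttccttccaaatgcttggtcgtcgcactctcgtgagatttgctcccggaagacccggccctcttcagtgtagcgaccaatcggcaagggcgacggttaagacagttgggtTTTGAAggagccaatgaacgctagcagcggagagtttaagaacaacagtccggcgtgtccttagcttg
Plk1: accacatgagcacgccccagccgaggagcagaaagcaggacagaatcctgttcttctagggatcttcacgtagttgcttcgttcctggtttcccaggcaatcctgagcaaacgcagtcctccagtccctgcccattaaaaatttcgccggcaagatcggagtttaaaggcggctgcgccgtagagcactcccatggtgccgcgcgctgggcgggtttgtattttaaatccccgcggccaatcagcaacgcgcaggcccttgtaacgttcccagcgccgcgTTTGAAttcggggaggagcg
Top2a: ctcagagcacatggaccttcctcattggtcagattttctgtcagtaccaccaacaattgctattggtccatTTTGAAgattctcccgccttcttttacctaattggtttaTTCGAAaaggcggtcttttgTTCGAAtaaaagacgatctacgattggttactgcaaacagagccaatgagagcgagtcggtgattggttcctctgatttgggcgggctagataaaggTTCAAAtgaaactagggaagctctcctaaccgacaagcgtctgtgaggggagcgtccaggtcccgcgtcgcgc

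Over the 12 genes with a CHR word and a fold change the median log2 fold change was -0.06, with a range from -0.51 to 0.26. Over the 14 with a window but no CHR word it was 0.00, with a range from -0.28 to 0.08. The genes with a CHR word thus held both the lowest and the highest of these values. Cdc20, Plk1 and Top2a, whose windows all hold a CHR word, had log2 fold changes of -0.29, 0.02 and -0.09. TCF words, CTTTGA and CTTTGT on both strands, were searched as well because CHIR acts through β-catenin and TCF factors. A stretch that reads CTTTGAA matches both a TCF word and a CHR word. They stood in 22.7% of the 44 windows and in 31.2% of all windows. The 7 genes with a TCF word and a fold change had a median of 0.02, with a range from -0.28 to 0.08. The 19 without one had a median of -0.03, with a range from -0.51 to 0.26.

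**Figure D3:**
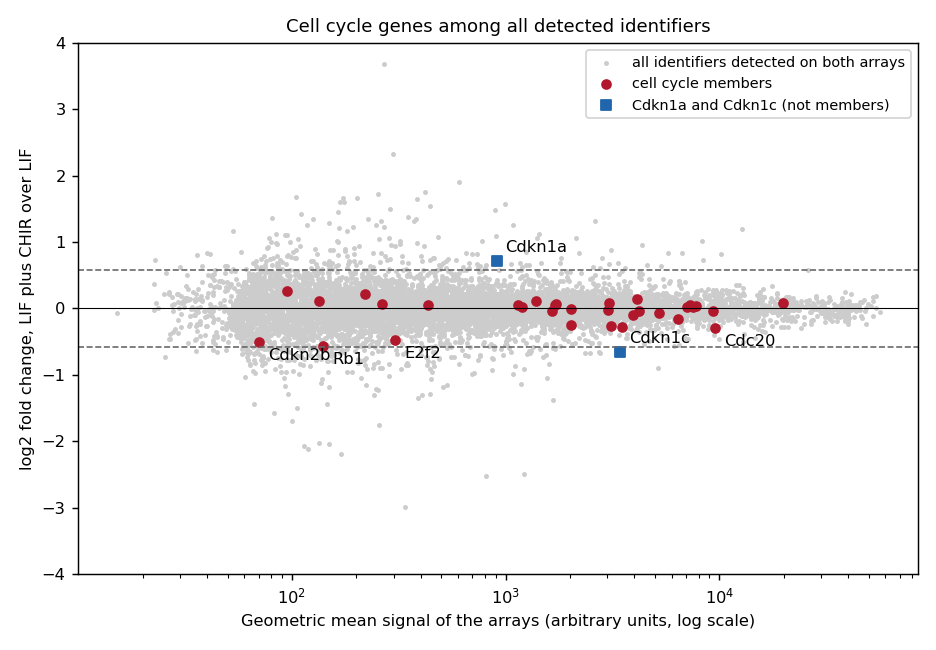
Log2 fold change of LIF plus CHIR over LIF (vertical axis) against the geometric mean signal of both arrays (horizontal axis, logarithmic, arbitrary units) for the 8580 identifiers detected on both arrays (grey), the 32 cell cycle genes (red) and Cdkn1a and Cdkn1c (blue). The red points lie inside the dashed lines at 1.5-fold at every brightness, and the blue points lie outside, at 0.71 and -0.65.

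Further cell cycle genes were counted from lists of other G1 and CDK regulators, transcription factors, replication factors, mitotic factors and checkpoint kinases. Of 108 such genes on the array, 60 were detected on at least 1 array. At the limit of 1.5-fold, 1 of these 60 genes was higher and 1 lower with CHIR. Among all 9615 identifiers detected on at least 1 array, 2.64% were higher and 2.88% lower by that limit. The genes past it, Cdkn1a and Cdkn1c, are inhibitors of the same family as Cdkn1b. Cdkn1a, which encodes p21, had a signal of 709.7 in LIF and 1161 in LIF plus CHIR, which is 1.64-fold higher (log2 fold change 0.71). Cdkn1c, which encodes p57 and is imprinted, had 4298 in LIF and 2733 in LIF plus CHIR, which is 1.57-fold lower (log2 fold change -0.65). The family thus gave 1 higher gene, 1 lower gene and, in Cdkn1b, 1 gene without a measured level. Among identifiers with a brighter signal of 1000 or more, like these genes, 1.21% were higher and 0.997% lower by that limit.

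In these further lists the small differences leaned downward. Of the 57 genes detected on both arrays, 43 were lower and 14 higher in LIF plus CHIR, with a median log2 fold change of -0.07, while 50.7% of all identifiers detected on both arrays were lower. The replication factors had 21 lower and 9 higher with a median of -0.06, and the mitotic factors had 13 lower and 1 higher with a median of -0.07. Next in size after Cdkn1a and Cdkn1c were 2 dim mitotic genes, Tpx2, a spindle assembly factor, with 79.9 in LIF and 53.6 in LIF plus CHIR, which is 1.49-fold lower (log2 fold change -0.58, and -0.63 after normexp correction), and Pttg1, which encodes securin, with 83.0 and 112.8 (0.44). Both are named after their values were seen. The genes of the main list in the same roles had medians of -0.02 and -0.03. No test of the lean could be made with 1 array per condition. None of the 6 checkpoint kinase genes was detected.

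**Figure D4:**
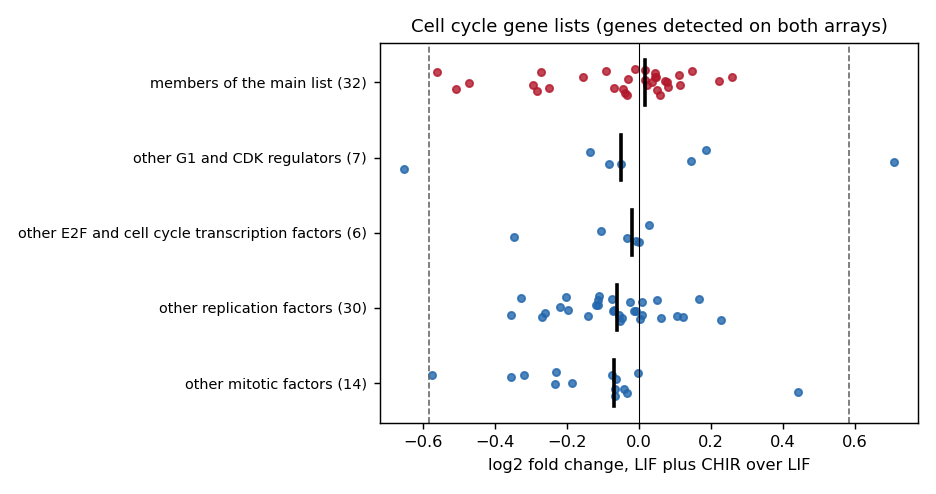
Log2 fold change of LIF plus CHIR over LIF for the 32 cell cycle genes (red) and for further cell cycle genes by list (blue), all detected on both arrays, with black bars at the medians, dashed lines at 1.5-fold and the number of genes in parentheses. The medians lie between -0.07 and 0.02, and Cdkn1a and Cdkn1c are the points beyond the dashed lines.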

How the data were processed

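RNA of B6 mESCs was measured on 1 Illumina beadchip array per condition. The authors deposited a background-subtracted signal intensity on a linear scale for each gene identifier and array, and a detection p-value against negative control beads. The software and normalization are not given in the sources used here. The shorter deposited table held 11702 of the 30774 identifiers, and 0 of its values differed. 

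Log2 fold changes came from the deposited signals (numpy 2.4.6 and pandas 2.3.3 under Python 3.11.15; figures with matplotlib 3.10.9). Identifiers whose detection p-values were multiples of 1 over 936 were taken to have 1 probe (16762), those with other p-values several probes (7430). For 6582 with p-values of 0 on both arrays this is not known. An undetected signal was replaced by the higher of itself and a minimum, the lowest signal detected on that array among 1-probe identifiers (51.9 for LIF, 47.1 for LIF plus CHIR), and gave a bound, or no fold where the bound was under 1. The number of arrays limits the precision, so differences carry no p-value. The fold calculation was tested on simulated data, made from brighter identifiers detected on both arrays with large planted changes. Bounds, dim signals and changes near 1.5-fold were not tested in this way. All 49 members are reported, and genes of the other lists are named at 1.5-fold or as stated. Members, lists and alternatives were chosen with earlier results of these data known. The motif words were chosen after the data were seen. Normexp correction used limma 3.58.1 in R 4.3.3.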

Additional observations from a re-analysis of the deposited data

How the results depend on the processing

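None of the cell cycle genes reached 1.5-fold in either direction after quantile normalization, at a detection p-value of 0.05, or with a minimum signal taken over all identifiers. The same held with detection by signal, which was chosen after seeing the data. Median scaling, by a factor of 0.999, could change little and also gave 0 genes. A limit of 2-fold and detection required on both arrays gave 0 genes too, but neither could have added a gene. The exception was normexp correction with an offset of 16, which gave 1 lower gene, Rb1, and left the number of higher genes at 0. The median log2 fold change, 0.02 as reported, turned to -0.00 under quantile normalization and normexp correction and to -0.01 with detection by signal. Cdk6, whose bound of 0.07 became 0.43 with the minimum over all identifiers and at the detection limit of 0.05, shifted most. At 1.2-fold the count of 6 lower genes held under every normalization and detection setting run. These 6 genes were detected on both arrays, so only the normalizations could move their values, and the detection settings left them unchanged. The count of 0 higher genes became 3 at a detection p-value under 0.05 and 1 under normexp correction (Cdc25b, 0.28). Detection by signal added Mcm6, Mki67, Cdc25c and Cdc6, for none of which the difference reached 1.5-fold. In the further lists Cdkn1a lay between 0.71 and 0.72 and Cdkn1c between -0.65 and -0.64 under all of these settings, and Tpx2 passed 1.5-fold under normexp correction. Cdkn1a and Cdkn1c were detected on both arrays, so only the normalizations could move their values. Genes near the lowest detected signals, such as Cdkn2b, Rbl1 and Cdk6, are limited most. No paired analysis was possible because there is a single array on each side, and no replicate could be left out. Counts over the whole array that moved by more than 1.5 times were 254 higher and 277 lower identifiers as reported, against 409 and 445 at a detection p-value under 0.05, 391 higher with the minimum over all identifiers, and 64 and 45 at 2-fold.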

Other observations

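Some cell cycle genes missed the detection limit at signals that passed it for other identifiers. Mcm6, Mki67, Cdc25c and Cdc6 had signals from 98.3 (Cdc6) to 2902 (Mcm6), above the minimum set from 1-probe identifiers on both arrays, and each had p-values of the kind that combine several probes. On the whole array, 4827 identifiers had a signal of at least 500 on both arrays, 455 of these were detected on neither array, and all 455 had p-values of that kind. Of the other undetected members, 7 (Cdkn1b, Rbl2, Gmnn, Ccna2, Wee1, Ccnb2 and Bub1) had signals below 0 on both arrays.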
